A study of Danio rerio with 4 samples.

Results

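A set of 4 zebrafish chaperone genes was followed through RNA-seq and RNA immunoprecipitation sequencing (RIP-seq) of ddx39a mutant and wild-type embryos: the cytosolic heat shock genes hsp70l (ENSDARG00000055723), hsp70.3 (ENSDARG00000021924) and dnajb1a (ENSDARG00000099383), and the endoplasmic reticulum (ER) chaperone gene HSPA5 (ENSDARG00000103846). They were chosen by symbol from earlier results of these data, as 4 of the 31953 genes counted, so their RNA-seq ratios describe these libraries and were not tested. Whole embryos were collected 24 h after fertilisation, and each assay had 1 library with the genotype label wild type and 1 with the label ddx39a mutant, so that every group is a single library. The labels describe the same RIP-seq procedure under both genotypes, in which ddx39a mutant embryos received ddx39a-Flag mRNA at the one-cell stage and RNA was taken from anti-Flag beads. RIP-seq libraries are therefore called by their labels, and neither is read as a mock. Each ratio compares 2 libraries and has no replicate check.

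Cells meet unfolded protein with separate chaperone systems in separate compartments. In the cytosol, heat shock factor proteins bind heat shock elements and switch on stress-inducible HSP70 genes together with HSP40 genes such as dnajb1, whose J-domain products pass clients to HSP70 and stimulate its ATPase. In the ER lumen, the HSP70 protein BiP, encoded by HSPA5, folds secretory proteins and holds the unfolded protein response sensors inactive, and its gene is a standard readout of that response. In zebrafish, hsp70l is strongly induced by heat and is also known for expression in the forming lens without heat shock. The helicase DDX39A, of the DEAD-box family, is known to take part in splicing and in the export of mRNA from the nucleus.

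Gene counts totalled 9922182 in wild-type and 9533101 in mutant RNA-seq, and 1966053 and 2246938 in RIP-seq with the wild-type and the mutant label. The 5 leading features took 75.5% and 69.5% of the RIP-seq gene counts. The symbol DDX39A belongs to 2 genes in the symbol table, and which of them is mutated is not stated there. The copy ENSDARG00000015111 had 3742 counts in wild-type and 706 in mutant RNA-seq, 5.31-fold lower, and the copy ENSDARG00000006225 had 2242 and 2382. Apart from alignments to more than 1 place, 53.8% and 54.0% of the RNA-seq records (wild type and mutant) fell in no gene. In RIP-seq this was 82.1% and 79.2% (wild-type and mutant label). Alignments to more than 1 place were left out of the gene counts. They made up 11.2% and 8.42% of the RNA-seq records and 91.8% and 89.5% of the RIP-seq records. This bears on hsp70.3 in particular: in RefSeq (assembly GRCz12tu) hsp70.1, hsp70.2 and hsp70.3 are neighbours with no other gene between them, and the inducible HSP70 genes are alike in sequence, so counts of single copies are uncertain.

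In RNA-seq, both stress-inducible HSP70 genes were higher in the mutant library, the HSP40 gene dnajb1a was higher by less than 2-fold, and HSPA5 was lower by less than 2-fold. A gene was called when the ratio of TMM-scaled counts was at least 2-fold and its 95% exact conditional binomial interval, which covers counting error only, excluded equality. By this rule hsp70l and hsp70.3 were called higher and dnajb1a and HSPA5 were not called. Of 18800 genes compared, 4.76% were called, 2.16% as higher and 2.6% as lower. Since the members were chosen on this contrast, nothing is read from their count.

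The inducible cytosolic HSP70 gene hsp70l had 20 counts in wild-type and 63 in mutant RNA-seq, which is 2.06 and 6.47 CPM (counts scaled to a library total of 1000000). It was thus 3.15-fold higher in the mutant library (interval 1.88 to 5.49). Of the genes compared, 159 had a larger log2 ratio. With 20 counts on the wild-type side the size of the difference is known only within that wide interval. The second inducible HSP70 gene, hsp70.3, was the better counted of the pair, with 123 counts (12.7 CPM) in wild-type and 279 (28.7 CPM) in mutant RNA-seq. Its level was 2.26-fold higher in the mutant library (1.83 to 2.82), and 375 genes had a larger log2 ratio. Both members were chosen on this contrast, so nothing is read from these ranks.

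The ratios of hsp70l and hsp70.3 differed from each other by 1.39-fold (0.787 to 2.53). The co-chaperone gene dnajb1a had 78 counts (8.03 CPM) in wild-type and 114 (11.7 CPM) in mutant RNA-seq. This is a ratio of 1.46 (1.08 to 1.97), above equality and under the 2-fold size. Relative to dnajb1a, hsp70l was 2.16-fold higher (1.17 to 4.07) and hsp70.3 1.55-fold higher (1.07 to 2.25) in the mutant library. These values come from the contrast on which the genes were chosen and are given as a description.

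HSPA5 was by far the best counted member, with 3222 counts (331.5 CPM) in wild-type and 2552 (262.2 CPM) in mutant RNA-seq. Its mutant level was 0.791 of the wild-type level (0.751 to 0.833). The mutant library was therefore high for hsp70l, hsp70.3 and dnajb1a and low for HSPA5, and the counting intervals of the CPM values overlapped between libraries for dnajb1a alone. In these bulk samples, fewer cells of a type and less RNA per cell cannot be told apart.

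**Figure D1:**
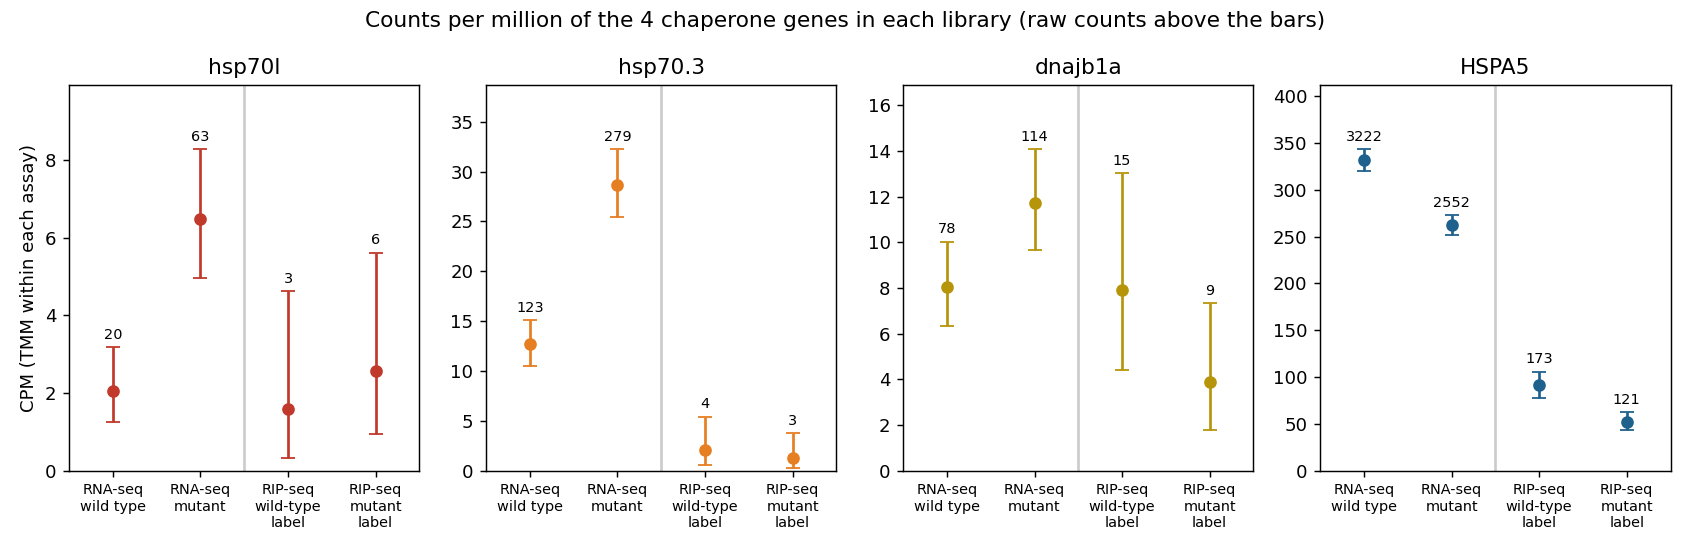
Level of each chaperone gene in CPM (vertical axis, TMM-scaled within each assay) in the 4 libraries (horizontal axis). Points are single libraries, bars are 95% exact Poisson intervals and numbers are raw counts; the mutant RNA-seq library lies above wild type for hsp70l (63 against 20 counts), hsp70.3 (279 against 123) and dnajb1a (114 against 78) and below it for HSPA5 (2552 against 3222), while the RIP-seq counts of the cytosolic genes do not exceed 15.

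Setting the cytosolic genes against HSPA5 within the same library removes both library scaling and gene length from the comparison. From wild-type to mutant RNA-seq, hsp70l was 3.98-fold higher relative to HSPA5 (2.36 to 6.96), hsp70.3 2.86-fold (2.29 to 3.59) and dnajb1a 1.85-fold (1.36 to 2.51). The genes were chosen for this contrast, so these values restate the choice and support nothing further. Together the 3 cytosolic genes held 221 of the 3443 counts of the 4 genes in wild-type RNA-seq, 6.42% (exact Clopper-Pearson interval 5.62 to 7.29%). In mutant RNA-seq they held 456 of 3008, 15.2% (13.9 to 16.5%). These shares compare libraries only, since counts of different genes are not on a per-length scale.

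Of the paralogs of the cytosolic genes, named after their values were seen, hsp70.1 had 5 counts in wild-type and 12 in mutant RNA-seq (ratio 2.4, 0.786 to 8.68), too few to exclude equality. The gene with the symbol hspa1b had 5 and 19 counts and was called higher (3.79-fold, 1.37 to 13). Both passed the filter on low counts through the mutant library alone, so genes this sparsely counted had to differ to be compared, and nothing is read from their direction. The dnajb1a paralog dnajb1b had 174 and 336 counts, a ratio of 1.93 (1.60 to 2.33) just under the size rule and beside 1.46 for dnajb1a, with intervals that overlap. Summed over the 4 hsp70 copies hsp70l, hsp70.3, hsp70.1 and hspa1b, without hsp70.2, the mutant library had 373 counts against 153. This is a ratio of 2.43 (2.01 to 2.96). Over both dnajb1 copies it had 450 against 252, a ratio of 1.78 (1.52 to 2.09). Both sums include members chosen on this contrast, which hold most of the hsp70 counts, so they restate that choice in part. A read given to the wrong one of the summed copies would not alter these sums, while reads left out for aligning to several places are missing from them too.

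**Figure D2:**
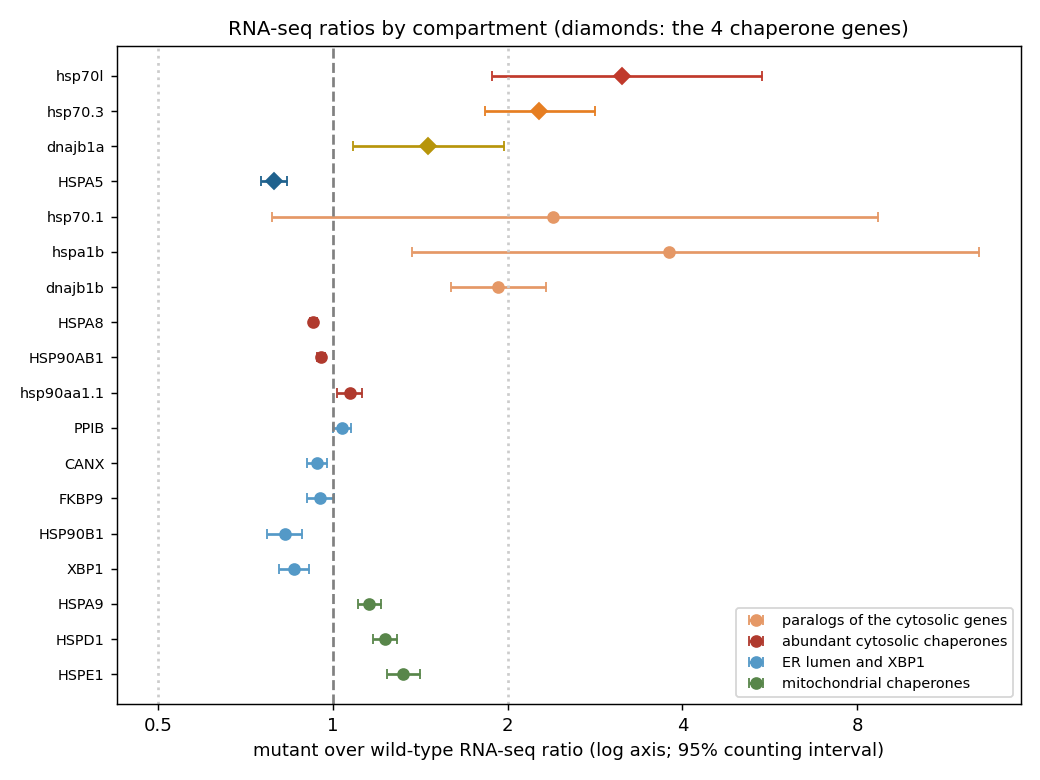
Mutant over wild-type RNA-seq ratio (horizontal log axis) of the 4 chaperone genes (diamonds), paralogs of the cytosolic ones and abundant or selected chaperone genes of each compartment (circles), with 95% counting intervals; dotted lines mark 2-fold. The inducible cytosolic genes hsp70l (3.15) and hsp70.3 (2.26) lie to the right of 2. The abundant cytosolic chaperones HSPA8 (0.925) and HSP90AB1 (0.954) lie just below 1. HSPA5 (0.791) and HSP90B1 (0.826), which was added after its values were seen, lie lower. The most counted ER list genes PPIB (1.04), CANX (0.940) and FKBP9 (0.951) lie nearer to 1. The 4 chaperone genes were chosen on this contrast.

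By its median, the wider cytosolic heat shock list, which holds constitutive and inducible genes, did not follow the inducible HSP70 genes. It held 49 measured genes besides the members, and 1 was called higher (hspa1b, above) and 1 lower, against 2.16% and 2.6% of all genes. The lower one was hspb6, a small heat shock protein gene, with 23 counts in wild-type and 6 in mutant RNA-seq (3.84-fold lower, 1.52 to 11.5). It passed the filter on low counts through the wild-type library alone, so nothing is read from its direction. The median log2 ratio of the list was -0.01, beside -0.002 over all genes compared. Around it the list was spread: intervals lay above 1 for 11 of the 49 genes and below 1 for 10. Over all 18800 genes compared these numbers were 2555 and 2858. The most abundant cytosolic chaperones were close to equality. HSP90AB1, the constitutive HSP90, had 38017 and 36314 counts (ratio 0.954, 0.940 to 0.968), and HSPA8 (ENSDARG00000068992), the constitutive HSC70, 37253 and 34515 (0.925, 0.912 to 0.939).

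The gene hsp90aa1.1, an HSP90 isoform of developing muscle in zebrafish, had 3000 and 3212 counts (1.07, 1.02 to 1.12). The heat shock factor gene hsf1, named after its values were seen, had 397 and 415 counts (1.04, 0.907 to 1.2), an interval that includes equality. Among 7 measured subunits of the cytosolic chaperonin CCT, which folds actin and tubulin, none was called, beside 4.76% of all genes compared, with a median of -0.04. Its most counted subunits CCT3, CCT7 and CCT4 had ratios of 1.04, 0.932 and 0.971.

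In the ER list of 48 measured chaperones and folding enzymes besides HSPA5, none was called higher and 1 was called lower, beside 2.16% and 2.6% of all genes compared. Its median log2 ratio was -0.06. The lower gene was CDNF, which encodes a neurotrophic factor of the ER lumen, with 34 and 9 counts (3.78-fold lower, 1.78 to 8.97). CDNF too passed the filter through the wild-type library alone, and nothing is read from its direction. The most counted members did not move by the size rule: the cyclophilin gene PPIB had 5582 and 5796 counts (1.04, 0.999 to 1.08), the lectin chaperone gene CANX 5002 and 4711 (0.940, 0.904 to 0.979) and the prolyl isomerase gene FKBP9 2772 and 2639 (0.951, 0.901 to 1.003). HSP90B1, the ER form of HSP90, named after its values were seen, had 1853 and 1532 counts (0.826, 0.771 to 0.884), a ratio near that of HSPA5. The collagen chaperone gene SERPINH1 (ENSDARG00000019949), an ER protein whose gene is a heat shock factor target in mammals, was also looked up after the fact and had 904 and 1247 counts (1.38, 1.26 to 1.5). The other SERPINH1 copy (ENSDARG00000075954) had 1180 and 1398 counts (1.18, 1.09 to 1.28).

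Of 40 measured regulators of the unfolded protein response and ER-associated degradation, 0 were called higher and 1 lower, beside 2.16% and 2.6% of all genes compared. The list median was -0.06. These numbers of called genes come from ratios of single libraries without any p-value, and nothing is read from numbers this small. The lower gene was a WFS1 copy (ENSDARG00000062341), which encodes the ER membrane protein wolframin, with 141 and 60 counts (2.35-fold lower, 1.73 to 3.24). The other WFS1 copy (ENSDARG00000074617) had 80 and 91 counts (1.14, 0.832 to 1.55) and was not called. XBP1, the transcription factor activated by IRE1, had 2460 and 2113 counts (0.858, 0.809 to 0.909). The Sec61 translocon genes SEC61A1 (ENSDARG00000021669) and SEC61B had ratios of 1.03 and 1.1. The other SEC61A1 copy (ENSDARG00000005675) had 855 and 757 counts (0.884, 0.801 to 0.976). Genes of the ATF4 branch, chosen after their values were seen, differed in direction. CHAC1 had 949 and 583 counts (0.613, 0.552 to 0.681) and TRIB3 375 and 303 (0.807, 0.691 to 0.941). In contrast ppp1r15a had 186 and 276 (1.48, 1.23 to 1.79), and ASNS (0.961) and DDIT3 (0.966) had intervals that include equality.

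The mitochondrial chaperones and proteases had the highest median of the 5 lists, 0.14, but none of 20 measured genes was called, beside 4.76% of all genes compared. HSPE1, HSPD1 and HSPA9, the mitochondrial HSP10, HSP60 and HSP70, had ratios of 1.32 (1.24 to 1.41), 1.23 (1.17 to 1.29) and 1.15 (1.1 to 1.21). Total-count scaling raised every log2 ratio of this pair by 0.06, at least as much as the cytosolic, chaperonin, ER and unfolded protein response medians differ from 0, so no direction is given to those medians.

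**Figure D3:**
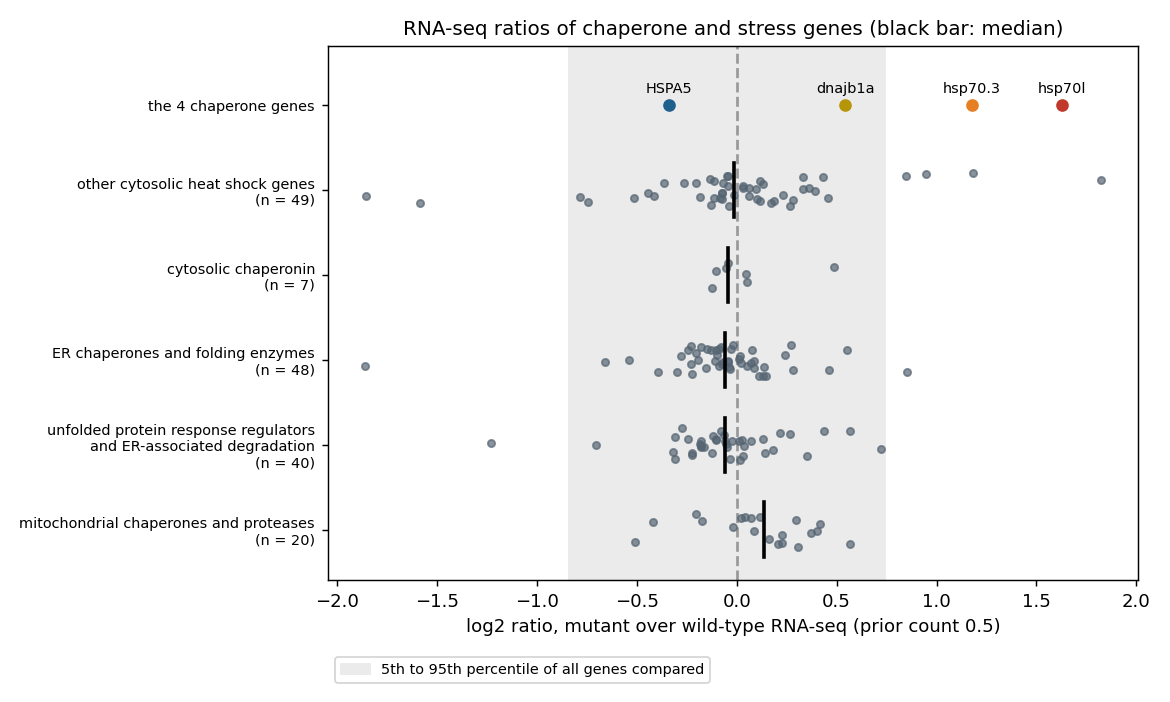
Log2 ratio of mutant over wild-type RNA-seq (horizontal axis, prior count 0.5) for the 4 chaperone genes and for each measured gene of 5 chaperone and stress lists (rows); black bars are list medians and the grey band spans the 5th to 95th percentile of all genes compared. The genes hsp70l (1.63) and hsp70.3 (1.18) lie to the right of the band, and dnajb1a (0.54) and HSPA5 (-0.34) lie inside it. The 4 chaperone genes were chosen on this contrast, so nothing is read from their places. The list medians lie between -0.06 and 0.14.

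Markers of tissues that could carry these transcripts differed between the same RNA-seq libraries. All 7 measured lens markers had ratios below 1, 6 of them called lower, beside 2.6% of all genes compared. Among them BFSP2 (13 and 6 counts), crygmxl2 (76 and 8) and crygm2d10 (44 and 2) passed the filter through the wild-type library alone. Nothing is read from the direction of those genes. The MIP copies, cryba1b and CRYBB1 passed it in both libraries and were called lower. The summed level over all 8 lens genes was 167.4 CPM in wild-type and 56.2 CPM in mutant RNA-seq. The same mutant library was high for hsp70l, and the part of the lens in the hsp70l ratio was not tested. Of the 7 markers of the hatching gland, a secretory tissue, none was called and 4 were below 1. Their summed level was 1845 CPM in wild-type and 1495 CPM in mutant RNA-seq, beside a ratio of 0.791 for HSPA5. Within the list he1.1 (0.767), he1.2 (0.799), CD63 (0.823) and XBP1 (0.858) were below 1, AGR2 was at 1.003, and CAP1 (1.24, 1.01 to 1.52) and he1.3 (1.68, 1.36 to 2.1) were above it. XBP1 is also in the unfolded protein response list above, and the part of the hatching gland in the HSPA5 ratio was not tested. Summed levels were 3540 and 1902 CPM for 3 fast muscle markers, 1325 and 757.7 for 4 blood markers, 239.0 and 208.9 for 4 notochord markers, 14590 and 14810 for 6 yolk and liver markers, 219.0 and 238.4 for 2 neuronal markers, of which gap43 is at 0 in both, and 16221 and 15874 for 3 epidermal markers. The part of these in any ratio of the members was not tested.

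RIP-seq with the mutant label was compared with RIP-seq with the wild-type label. Neither the cytosolic genes nor HSPA5 were called, while 13.7% of the 15762 genes compared were (8.37% higher, 5.3% lower). The cytosolic genes rested on few counts. With the wild-type and the mutant label, hsp70l had 3 and 6 counts (ratio 1.63, 0.349 to 10.1), hsp70.3 had 4 and 3 (0.612, 0.0896 to 3.62), and dnajb1a had 15 and 9 (0.490, 0.189 to 1.19). The RNA-seq ratios of hsp70l and hsp70.3 lie within their own RIP-seq intervals, so these RIP-seq counts do not exclude a difference of that size. The RNA-seq ratio of dnajb1a, 1.46, lies above its RIP-seq interval, but the gene was chosen on that RNA-seq contrast. Summed over the copies, the RIP-seq ratio was 1.18 for hsp70 (0.466 to 3.12, from 9 and 13 counts), on the other side of equality from hsp70.3 alone, and 0.544 for dnajb1 (0.256 to 1.12).

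HSPA5 was well enough counted to give a narrower value in RIP-seq. It had 173 counts (91.1 CPM) with the wild-type label and 121 (52.0 CPM) with the mutant label, a ratio of 0.571 (0.449 to 0.724), or 1.75-fold lower, under the size rule. It became 2.04-fold lower and was called when the 5 leading features of each library were left out of the total used for scaling. With TMM, 3521 of the 15762 genes compared had a smaller log2 ratio than HSPA5. The abundant cytosolic chaperones were also below 1: HSP90AB1 had 3916 and 2643 counts (0.551, 0.524 to 0.579). The ratios of hsp90aa1.1 and HSPA8 (ENSDARG00000068992) were 0.698 (0.596 to 0.818) and 0.857 (0.804 to 0.914). Of the 42 measured cytosolic list genes, 15 were above 1 and 27 below, beside 7583 above and 8179 below over all genes compared. Relative to HSPA5, the RIP-seq ratios of hsp70l, hsp70.3 and dnajb1a were 2.86 (0.595 to 17.9), 1.07 (0.154 to 6.46) and 0.858 (0.320 to 2.17), none of which excludes equality. The 3 cytosolic genes held 11.3% (7.21 to 16.6%) of the counts of the 4 genes with the wild-type label and 12.9% (7.86 to 19.7%) with the mutant label. These intervals overlap, but they rest on only 195 and 139 counts of the 4 genes. Those of RNA-seq rest on 3443 and 3008 counts and on the contrast of choice, so no difference between the assays is read from the overlap.

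Of 43 measured genes of the ER chaperone list, 5 were called lower and 1 higher in this RIP-seq comparison, beside 5.3% and 8.37% of all genes compared. Its median log2 ratio was -0.39, beside -0.05 over all genes, and the chaperonin and unfolded protein response lists both had medians of -0.18. The lower ones, named after their values were seen, were CALR (34 and 17 counts, 2.45-fold lower, 1.33 to 4.68) and calr3a (148 and 75, 2.42-fold, 1.82 to 3.24), which encode calreticulins, PDIA4 (44 and 23, 2.34-fold, 1.39 to 4.07), a disulfide isomerase, and the sparsely counted TMX1 (9 and 1) and MANF (10 and 1). TMX1 and MANF passed the filter through the wild-type label alone, so nothing is read from their direction or from the number called lower. The higher one was the ER oxidase gene ERO1B (4 and 18 counts, 3.67-fold, 1.21 to 14.9). In the cytosolic list of 42 genes, HSF2, a heat shock factor gene, was called higher (7 and 27 counts, 3.15-fold, 1.34 to 8.56) and HSP90AA1 (ENSDARG00000024746) lower (97 and 54 counts, 2.2-fold, 1.56 to 3.13), with a list median of -0.24.

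RIP-seq was also set against RNA-seq of the same label. These pairs share libraries with the comparisons above, and their RNA content differs, so the ratios describe relative counts and not recovery by DDX39A. The RIP-seq procedure names ddx39a mutant embryos under both labels, so with the wild-type label the embryos of the assays may differ in genotype. Of 17412 genes compared with the wild-type label, 23.1% were called (9.01% higher, 14.1% lower), and dnajb1a was the 1 member called: it was 3.46-fold higher in RIP-seq (1.85 to 6.06, from 15 counts against 78). Over both dnajb1 copies the ratio was 1.5 and not called. The call also rests on the scaling, because total gene counts multiply every ratio of the pair by 0.281 and brought dnajb1a to 0.971, where it was not called, while hsp70.3 (0.164) and HSPA5 (0.271) then were called lower. The other ratios with the wild-type label were 2.70 for hsp70l (0.513 to 9.09), 0.584 for hsp70.3 (0.157 to 1.53) and 0.965 for HSPA5 (0.823 to 1.12).

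With the mutant label, 30% of 17711 genes were called (13.8% higher, 16.2% lower), and hsp70.3 was the 1 member called. It had 3 RIP-seq counts against 279 in RNA-seq, 6.32-fold lower (2.14 to 30.8). Over the summed hsp70 copies the counts were 13 against 373, 1.95-fold lower (1.13 to 3.7), which was not called. The other ratios were 1.40 for hsp70l (0.496 to 3.22), 1.16 for dnajb1a (0.518 to 2.28) and 0.698 for HSPA5 (0.576 to 0.837). Over both dnajb1 copies the ratio was 0.458 and called lower, on the other side of equality from dnajb1a alone. Total gene counts multiply these ratios by 0.288, and then hsp70l (0.404), dnajb1a (0.335) and HSPA5 (0.201) were called lower as well.

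Comparisons between members do not depend on that scaling. Relative to HSPA5, dnajb1a was 3.58-fold higher in RIP-seq than in RNA-seq with the wild-type label (1.87 to 6.43) and 1.67-fold with the mutant label (0.724 to 3.38). For hsp70.3 the values were 0.606 (0.161 to 1.62) and 0.227 (0.0458 to 0.686), and for hsp70l 2.79 (0.526 to 9.55) and 2.01 (0.696 to 4.75). Relative to dnajb1a, hsp70.3 was 5.91-fold lower in RIP-seq (1.78 to 25.2) with the wild-type label and 7.34-fold lower (1.78 to 42.7) with the mutant label, from 4 and 3 RIP-seq counts of hsp70.3. Over the summed copies, the RIP-seq over RNA-seq ratio was 1.06 for hsp70 (0.474 to 2.06) and 1.5 for dnajb1 (0.911 to 2.34) with the wild-type label. With the mutant label it was 0.513 (0.270 to 0.888) and 0.458 (0.248 to 0.776), so the intervals of the 2 families overlapped under both labels.

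**Figure D4:**
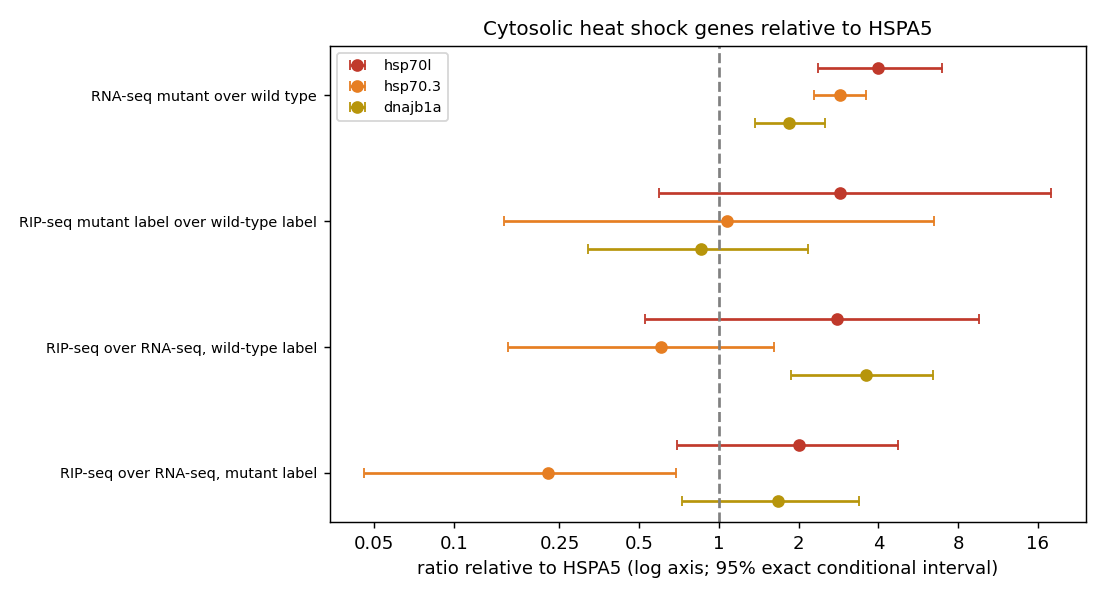
Ratio of each cytosolic gene relative to HSPA5 (horizontal log axis, 95% exact conditional intervals, which cover counting error only) in each of the 4 library comparisons (rows). In RNA-seq, the contrast on which the genes were chosen, all 3 intervals lie above 1; in the RIP-seq comparison all 3 include 1; in RIP-seq over RNA-seq, dnajb1a lies above 1 with the wild-type label (3.58) and hsp70.3 below 1 with the mutant label (0.227).

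The genes with the most similar profiles were taken as those at the smallest distance between mean-centred log2 CPM over the 4 libraries, among 6306 named genes with at least 10 counts in each. For HSPA5 they were SAMM50 (distance 0.0308), ANO10 (0.0810) and ALDOC (0.0891). For dnajb1a they were znhit6 (0.180), DAXX (0.216) and TGFBRAP1 (0.216). The nearest genes to hsp70l were SLC25A37 (0.399), rlf (0.461) and senp7b (0.523), and those to hsp70.3 included RAB13 (0.533) and MEX3B (0.553). The cytosolic members had under 10 counts in at least 1 RIP-seq library, so they fall outside this depth limit themselves.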

How the data were processed

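Each deposited file held the raw counts of 1 library over 31953 Ensembl gene rows, plus 5 HTSeq summary rows that were kept out of library sizes. The submitters' processing notes name HTSeq 0.6.1p1, TopHat2 2.2.1, Bowtie2 2.2.3, FastQC 0.11.5 and bcl2fastq, and the build GRCz10. The annotation release and the strand setting of the counting are not given in the sources, so antisense or overlapping genes cannot be told apart. Per the labels' protocols, libraries were made after oligo(dT) enrichment. Groups came from the titles. A symbol table matched 26121 gene IDs.

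Counts of each pair of libraries were scaled by TMM (edgeR 4.0.16, R 4.3.3) and compared where the CPM was at least 1 in either library. All 4 members passed this in all 4 comparisons. Intervals are exact conditional binomial intervals at 95% (scipy 1.17.1), and ratios between members are odds ratios with exact conditional intervals. Log2 ratios used a prior count of 0.5. The intervals cover counting error only. They may be too narrow even for that, since the reads carry no molecular identifiers and need not be independent molecules. No p-values were computed. The intervals and the calling rule were tested on simulated Poisson counts of an RNA-seq pair, scaled by total counts. That simulation held no TMM step, no variation between libraries and no RIP-seq library, so it does not bear on those.

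The members and the 5 lists were chosen with earlier results of these data known; a further list and a few single genes are not reported here. Named genes were the members, up to 4 called and the 3 most counted genes per list, and the 3 genes most like each member (at least 100 counts in all and 10 per library). Alternatives were DESeq2 1.42.0 size factors, total gene counts with and without the 5 leading features, no filter, a minimum CPM of 5, a 4-fold rule, and summed copies (added after the data were examined).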

Additional observations from a re-analysis of the deposited data

Results flagged for a closer look

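The direction of the label contrast differed between the assays for hsp70.3 and dnajb1a, which were above 1 in mutant over wild-type RNA-seq (2.26 and 1.46) and below 1 in RIP-seq (0.612 and 0.490). This difference was not tested, since each group has 1 library. The labels describe ddx39a mutant embryos for both RIP-seq libraries, so their label contrast need not be the genotype contrast of RNA-seq. The RIP-seq ratio over the RNA-seq ratio was 0.270 for hsp70.3 (counting interval 0.0391 to 1.63), which includes equality, and the RIP-seq ratio turned to 1.18 over the summed hsp70 copies. The RIP-seq ratio over the RNA-seq ratio was 0.335 for dnajb1a (0.123 to 0.870), from 9 and 15 RIP-seq counts. It was also below 1 for hsp70l (0.519, 0.1 to 3.52) and HSPA5 (0.722, 0.564 to 0.921), whose direction was the same in both assays. The RNA-seq part is the contrast on which the members were chosen, so nothing is read from these values.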

How the results depend on the processing

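In RNA-seq the calls of hsp70l, hsp70.3, dnajb1a and HSPA5 were the same under all 3 other scalings, with ratios of 3.15 to 3.28, 2.26 to 2.36, 1.46 to 1.52 and 0.791 to 0.824. With total gene counts, RIP-seq over RNA-seq turned to 0.971 for dnajb1a and moved to 0.271 for HSPA5 with the wild-type label, and to 0.404 for hsp70l, 0.335 for dnajb1a and 0.201 for HSPA5 with the mutant label. With copies summed, an alternative chosen after seeing the data, RIP-seq over RNA-seq moved to 0.513 for hsp70.3 and 0.458 for dnajb1a with the mutant label, and to 1.5 for dnajb1a with the wild-type label. With total gene counts, numbers of called genes became 310 higher and 13429 lower, and 500 higher and 12946 lower, for the wild-type and the mutant label. Without the 5 leading features, 1333 genes were lower in the RIP-seq comparison. In RNA-seq, 114 genes were higher and 194 lower with a CPM of at least 5, where no cytosolic or ER list member remained called, and 99 and 114 with a 4-fold size. With total counts 2 cytosolic list members were called higher in RNA-seq. The 4-fold size left 564 higher and 367 lower genes between the RIP-seq labels. In RIP-seq over RNA-seq it left 758 and 1223 (wild-type label) or 1221 and 1348 (mutant label). Few RIP-seq counts limit every value of the cytosolic genes there. No paired analysis was possible because each group has 1 library and no result comes from a test.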
